A study of Mus musculus with 13 samples.

Results

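The comparison described here is that of haemogenic endothelium with and without Lmo2, in mouse embryonic stem (ES) cells differentiated in culture. Haemogenic endothelium 1 (HE1) is the fraction that carried Tie2 and Kit but not CD41 at the cell surface, and it was sorted on day 2 of a blast culture of Flk-1+ cells. All HE1 cells came from the same kind of culture, with VEGF, IL-6 and endothelial conditioned medium, and differed by the ES line they started from, which was WT (the CCB line) or Lmo2-/-. There were 2 RNAseq libraries of WT HE1 and 2 of Lmo2-/- HE1, 4 of the 13 RNAseq libraries of the series, the others being Flk-1+ cells, in 3 libraries for each of WT, Lmo2-/- and Tal1-/-. Each genotype was a single ES line, so a difference of genotype and a difference of line cannot be told apart. Expression was given as FPKM, fragments counted relative to transcript length and to all mapped fragments of the library. The genes compared were those with a locus longer than 200 bp and at least 1 FPKM in at least 2 of the 4 HE1 libraries, which held for 11014 of the 45250 genes in the table. Values below are given in the order of replicate 0 and replicate 1 for each genotype.

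LMO2 has no DNA binding domain of its own and bridges DNA-bound TAL1, E-proteins and GATA factors to LDB1. Haemogenic endothelium is the specialised endothelium from which blood cells emerge by an endothelial to haematopoietic transition, in which RUNX1 is required. When endothelial cells lose their identity they can acquire mesenchymal features, with fibrillar collagens, platelet-derived growth factor receptors and factors such as SNAI2 as the usual markers.

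The libraries differed in quality, and this touches every result. In Lmo2-/- HE1 replicate 1, 9694 genes of the table had an FPKM above 0, against 11861 to 12820 in the other 3 HE1 libraries. Among the 11014 genes compared 2022 (18.36 percent) were listed at 0 in this library, against 310 to 626 in the other 3, and the median FPKM of the genes above 0 was 19.99 against 8.94 to 9.61. The product of FPKM and transcript length in kilobases, which is lowest for genes with the fewest fragments, had a first percentile of 0.903 in this library and of 0.287 to 0.378 in the other 3. The WT libraries resembled each other most (Pearson's r = 0.849 over the log2 values of the genes). Replicate 0 of Lmo2-/- HE1 was closer to the WT libraries (r = 0.766 and 0.793) than to replicate 1 of its own genotype (r = 0.706). Values of replicate 0 and the test without replicate 1 are therefore given for most of the genes described. That test leaves a single Lmo2-/- HE1 library, so its spread comes from the other groups. The same library also entered the main fit, so a call that holds in both is no independent support.

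The targeted gene was read first. Lmo2 (chr2:103957986-104063240, mm10) had 4.30 and 20.6 FPKM in the libraries labelled WT HE1, and 6.42 FPKM and 0 in those labelled Lmo2-/- HE1. The groups overlapped, and the log2 fold change, with its standard error (SE), was -1.98 (SE 1.04, limma adjusted p = 0.253). Since the level of Lmo2 did not tell the genotypes apart in HE1, all directions below rest on how the libraries were labelled. In Flk-1+ cells of the same lines, Lmo2 had 22.9, 30.8 and 21.6 FPKM in WT and 2.63, 6.48 and 2.17 FPKM in Lmo2-/-. These libraries did not overlap and ran in the direction of the labels, with a log2 fold change of -2.55 (SE 0.85) that did not pass the test over all genes.

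The surface markers of the sort were present in all groups. Tek, which encodes Tie2, had 121 and 124 FPKM in WT and 176 and 154 FPKM in Lmo2-/- HE1. Kit had 59.8 and 42.4 FPKM in WT and 50.7 and 68.5 FPKM in Lmo2-/-. Itga2b, which encodes the CD41 that the gate excluded, had 15.4 and 10.4 FPKM in WT, and 19.8 FPKM and 0 in Lmo2-/-. None of these passed the test (limma adjusted p = 0.597, 0.806 and 0.390), and they were used to choose the cells. The endothelial genes Cdh5 and Pecam1 were expressed in all 4 libraries. Cdh5 (VE-cadherin) had 452 and 423 FPKM in WT and 281 and 365 FPKM in Lmo2-/-. Pecam1 (CD31) had 109 and 124 FPKM in WT and 167 and 144.5 FPKM in Lmo2-/-. Both are abundant members of a list of endothelial surface genes described below. In that list 12 of 22 tested genes had both Lmo2-/- libraries below WT and 3 above, against 15.5 and 31.4 percent of all tested genes. Of the 5 tested sort and stage markers 0 were called by limma, and 0 had an unadjusted p below 0.05. Over all 11014 tested genes 2798 had such a p by limma. Markers of blood cells were near the bottom of the scale. Of 16 erythroid genes 9 stayed below 1 FPKM in all 4 libraries, and so did 13 of 20 blood surface and myeloid genes. Among these Ptprc, which encodes the pan-leukocyte antigen CD45, and the embryonic globin gene Hbb-y were listed at 0 in every library. The summed FPKM of the erythroid genes was 22.1 and 28.2 in WT and 16.7 in each Lmo2-/- library. That of the blood surface and myeloid genes was 58.5 and 56.5 in WT and 86.6 and 199 in Lmo2-/-, most of it Cd44, which other cells also carry and which had 193 FPKM in replicate 1. Of the 2 erythroid and 5 blood genes tested 0 were called by limma, with 1 and 3 at an unadjusted p below 0.05.

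In the libraries labelled Lmo2-/-, 7 of 20 tested matrix genes and 6 of 15 tested mesenchymal factors were called higher and none lower by limma, and 2 of 22 endothelial surface genes and 2 of 19 endothelial transcription factors were called lower. A gene was called when limma gave an adjusted p under 0.05 and the average of either group exceeded 10 FPKM. In the fit of all 13 libraries 2798 of the 11014 genes had an unadjusted p below 0.05. In this fit 369 genes were called higher (3.35 percent of those tested) and 159 lower (1.44 percent). In each of these 528 genes both Lmo2-/- libraries lay outside both WT libraries. Over all tested genes both lay above WT in 31.4 percent and below in 15.5 percent. The same values gave the calls, so this is no further support for them. Without replicate 1 of Lmo2-/- HE1, 193 genes were called, 104 higher and 89 lower. Of the 528 genes 142 (26.9 percent) were called in the same direction in both fits, 93 higher (0.844 percent of the genes tested) and 49 lower (0.445 percent). With only the 4 HE1 libraries in the fit 0 genes were called, and 1276 had an unadjusted p below 0.05. Array weights, which lower the weight of libraries that deviate, left 56 genes called. Both Lmo2-/- HE1 libraries had the same weight of 0.276, and both WT HE1 libraries 1.02. The weights therefore did not set replicate 1 below replicate 0. With 2 libraries a side the exact permutation test of a single gene cannot go below p = 0.333. The calls rest on a spread estimated from all 13 libraries, the Flk-1+ cells included. In the fit without replicate 1 the Lmo2-/- HE1 group, left with a single library, adds nothing to that spread.

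The split between higher and lower genes depended on scaling. In the fit of FPKM as deposited 69.9 percent of the calls were higher in Lmo2-/-, and the log2 fold changes over all genes tested had a median of 0.28. With quantile normalization 204 genes were called higher and 149 lower (57.8 percent higher), with a median of 0.02. With all libraries rescaled to a common median 203 were called higher and 189 lower (51.8 percent higher), with a median of -0.13. In 433 of the 528 called genes replicate 1 lay further from the WT mean than replicate 0. The genes called higher had a median difference from WT of 1.95 in replicate 0 and 3.14 in replicate 1, on the scale of log2(FPKM + 1), and those called lower of -2.03 and -3.84. Of the 159 genes called lower 107 were listed at 0 in replicate 1, and 23 in both Lmo2-/- libraries.

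**Figure D1:**
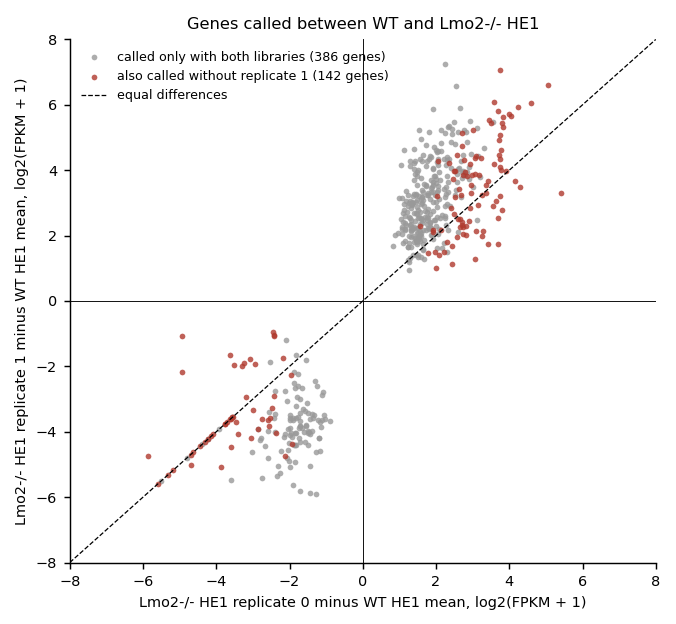
Each point is a gene called between the libraries labelled WT and Lmo2-/- HE1. The x axis gives the difference of Lmo2-/- replicate 0 from the mean of the WT libraries and the y axis that of replicate 1, both in log2(FPKM + 1), and red points are the 142 genes also called without replicate 1. All points lie in the upper right or the lower left, and 433 of the 528 are further from 0 on the y axis than on the x axis.

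The 15 largest rises among the genes called in both fits were led by Itga8 (chr2:12106632-12312315), the alpha-8 integrin subunit that pairs with beta-1 on mesenchymal cells. Itga8 had 0.631 and 0.385 FPKM in WT and 48.9 and 146 FPKM in Lmo2-/- HE1. Replicate 0 alone lay 5.05 above the WT mean on the log2 scale. Pdgfra, which encodes the platelet-derived growth factor receptor alpha of mesenchymal cells and whose locus (chr5:75152292-75198215) also holds Mir7025, had 2.98 and 1.01 FPKM in WT and 37.3 and 94.5 FPKM in Lmo2-/-. Its log2 fold change was 4.42 (SE 0.48, limma adjusted p = 0.000535, and 0.00263 without replicate 1). Further genes of the matrix were among these 15. Adamts2, a procollagen N-proteinase, had 0.704 and 0.389 FPKM in WT and 17.5 and 103 FPKM in Lmo2-/-. Smoc2, a calcium-binding matrix protein, was listed at 0 in both WT libraries and had 11.9 and 55.0 FPKM in Lmo2-/-. Igfbp5, which binds insulin-like growth factors, had 0.427 and 0.521 FPKM in WT and 15.8 and 63.0 FPKM in Lmo2-/-.

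Signalling genes made up another part of the 15. Gli2, a transcription factor of the hedgehog pathway, had 1.25 and 1.40 FPKM in WT and 24.3 and 106 FPKM in Lmo2-/- HE1. The cell surface proteoglycan gene Gpc1 had 0 and 1.68 FPKM in WT and 22.5 and 80.5 FPKM in Lmo2-/-. Sema5a, a semaphorin, had 0.908 and 0.924 FPKM in WT and 26.1 and 76.4 FPKM in Lmo2-/-. Daam2, a formin of Wnt signalling, had 0 and 0.0522 FPKM in WT and 15.9 and 50.8 FPKM in Lmo2-/-. The other members were Gpr50, Kif5c, Pdzrn3, Tdo2, Tceanc2 and Sertad4, of which Gpr50 and Pdzrn3 were listed at 0 in both WT libraries. Tceanc2 was the only member with a higher value in replicate 0 (302 FPKM) than in replicate 1 (68.9 FPKM). The log2 fold changes of the 12 genes above 0 in at least 1 WT library ran from 4.31 to 5.83, with limma adjusted p from 0.000220 to 0.0102.

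Of the 15 largest falls 14 are described. Rps15a encodes a ribosomal protein, of which near-identical copies lie elsewhere in the genome, so its FPKM is uncertain. Rps15a had 129 and 61.7 FPKM in WT and 0.542 and 2.41 FPKM in Lmo2-/-. Igf1 (chr10:87826377-87937042), an insulin-like growth factor, had 82.5 and 40.7 FPKM in WT and 3.04 and 0.746 FPKM in Lmo2-/-, a log2 fold change of -4.47 (SE 0.53, limma adjusted p = 0.000760, and 0.00359 without replicate 1). Gja4 (chr4:127311421-127314039) encodes connexin 37, a gap junction protein of arterial endothelium. It had 8.49 and 17.2 FPKM in WT and was listed at 0 in both Lmo2-/- libraries. Gsta4, a glutathione transferase gene, had 40.8 and 37.4 FPKM in WT and was also listed at 0 in both Lmo2-/- libraries, as were Cib1, Nme6, Hrsp12, Ndufaf2, Cox7a2, Rpp21 and Mnat1. Rnaseh2c, Cstb and the joined locus of Fxyd5, Fxyd7 and Mir7050 were the others, with up to 1.22 FPKM in replicate 0 and 0 in replicate 1.

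**Figure D2:**
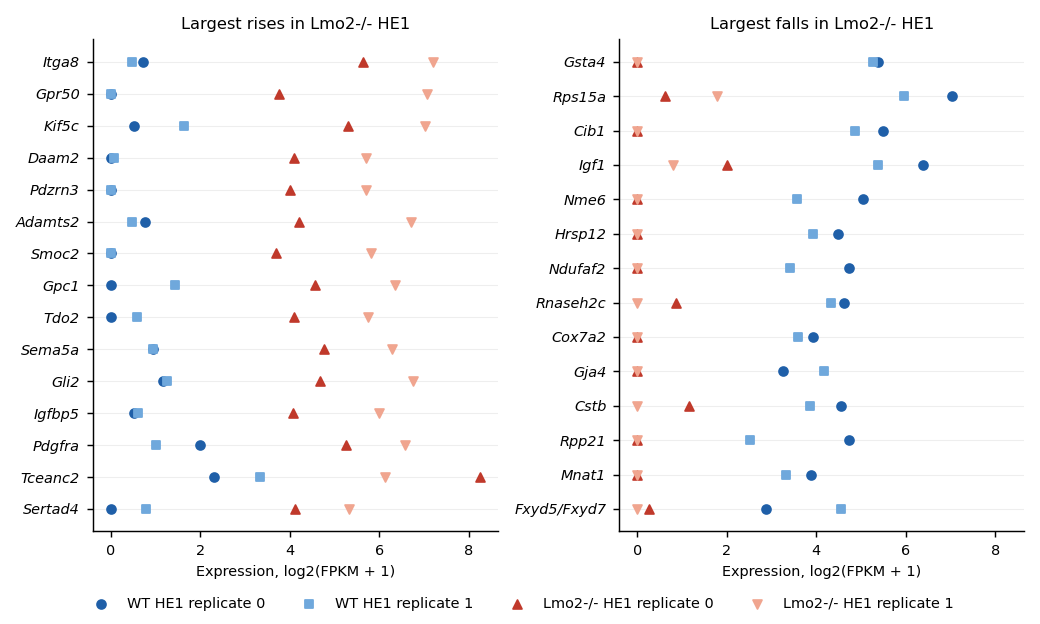
Expression in log2(FPKM + 1) on the x axis of the 15 largest rises (left) and 14 of the 15 largest falls (right) among genes called with and without Lmo2-/- HE1 replicate 1. Each symbol is a library, named by its label, and symbols at 0 can lie on top of each other. In every gene shown both Lmo2-/- libraries lie on the same side of both WT libraries, as the selection required.

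The fibrillar and interstitial matrix had the most genes called higher of all lists. Of 26 genes listed 20 were tested, 7 were called higher and 0 lower, and 5 of the 7 were also called without replicate 1. The median log2 fold change of the 20 was 1.91, against 0.28 for all tested genes, and in replicate 0 alone it was 1.33 against 0.19. In 16 of the 20 both Lmo2-/- libraries lay above both WT libraries, a pattern found in 31.4 percent of all tested genes. Postn (periostin) had 20.0 and 12.4 FPKM in WT and 99.7 and 372 FPKM in Lmo2-/-, a log2 fold change of 3.53 (SE 0.61, limma adjusted p = 0.00540). Tgfbi, which encodes a matrix protein induced by TGF-beta, had 2.11 and 1.94 FPKM in WT and 39.8 and 60.7 FPKM in Lmo2-/-, a log2 fold change of 4.05 (SE 0.47, limma adjusted p = 0.000760). Col3a1 had 0 and 4.14 FPKM in WT and 23.2 and 27.9 FPKM in Lmo2-/-.

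The other called members were Fbln2 and Col12a1, which held without replicate 1 (limma adjusted p = 0.0469 and 0.0420), and Col1a1 and Col6a3, which did not. Col1a1 had 6.64 and 5.23 FPKM in WT and 29.6 and 259 FPKM in Lmo2-/-, with a limma adjusted p of 0.0129 that rose to 0.0732 without replicate 1. The most abundant member was Fn1 (fibronectin), at 1534 and 1426 FPKM in WT and 1608 and 4965 FPKM in Lmo2-/-, so that its difference lay in replicate 1 (limma adjusted p = 0.430). Fbn1 (fibrillin 1) went the other way without passing the test, with 189 and 159.5 FPKM in WT and 72.1 and 86.7 FPKM in Lmo2-/- (limma adjusted p = 0.161). Of 15 tested basement membrane genes, the matrix of endothelium itself, 0 were called by limma in the fit of all libraries and 6 had an unadjusted p below 0.05. With a library left out up to 3 were called higher. Col4a1 had 243 and 220 FPKM in WT and 141 and 195 FPKM in Lmo2-/- (limma adjusted p = 0.459).

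Factors of mesenchymal cells and of the epithelial to mesenchymal transition gave 6 called higher and 0 lower of 15 tested, of 26 listed. Their median log2 fold change was 1.26, and 1.17 in replicate 0. Over all tested genes 3.35 percent were called higher. Snai2 (SLUG), a repressor of cadherin genes, had 1.5 and 2.12 FPKM in WT and 19.1 and 38.3 FPKM in Lmo2-/-, a log2 fold change of 3.33 (SE 0.53, limma adjusted p = 0.00330, and 0.0159 without replicate 1). Cdh11, the mesenchymal cadherin, had 2.19 and 2.72 FPKM in WT and 45.5 and 58.3 FPKM in Lmo2-/-. Cdh2 (N-cadherin) had 25.7 and 23.4 FPKM in WT and 71.3 and 67.0 FPKM in Lmo2-/-. Pdgfra, Prrx2 and Msx1 were the other called members, and Cdh2, Prrx2 and Msx1 were no longer called without replicate 1. Vim (vimentin), the most abundant member, had 835 and 954 FPKM in WT and 481 and 942 FPKM in Lmo2-/-, which overlapped. The summed FPKM of all listed members was 1030 and 1120 in WT and 880 and 1440 in Lmo2-/-, and it is mostly vimentin.

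Of the 10 pericyte and mural genes 5 were tested and 3 were called higher, against 3.35 percent of all tested genes. Pdgfrb had 2.38 and 2.28 FPKM in WT and 30.3 and 67.7 FPKM in Lmo2-/-, a log2 fold change of 3.8 (SE 0.55, limma adjusted p = 0.00182, and 0.0136 without replicate 1). Rgs5 and Anpep were called with both libraries but not without replicate 1. The summed FPKM of the 10 genes was 23.7 and 25.2 in WT and 74.4 and 191 in Lmo2-/- HE1. The defining pericyte genes Kcnj8 and Higd1b were listed at 0 in every library, and Cspg4 (NG2) did not exceed 0.990 FPKM. In bulk libraries a larger share of mesenchymal cells and more of such RNA per cell cannot be told apart, and the part of other cells in the sorted fraction was not tested.

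**Figure D3:**
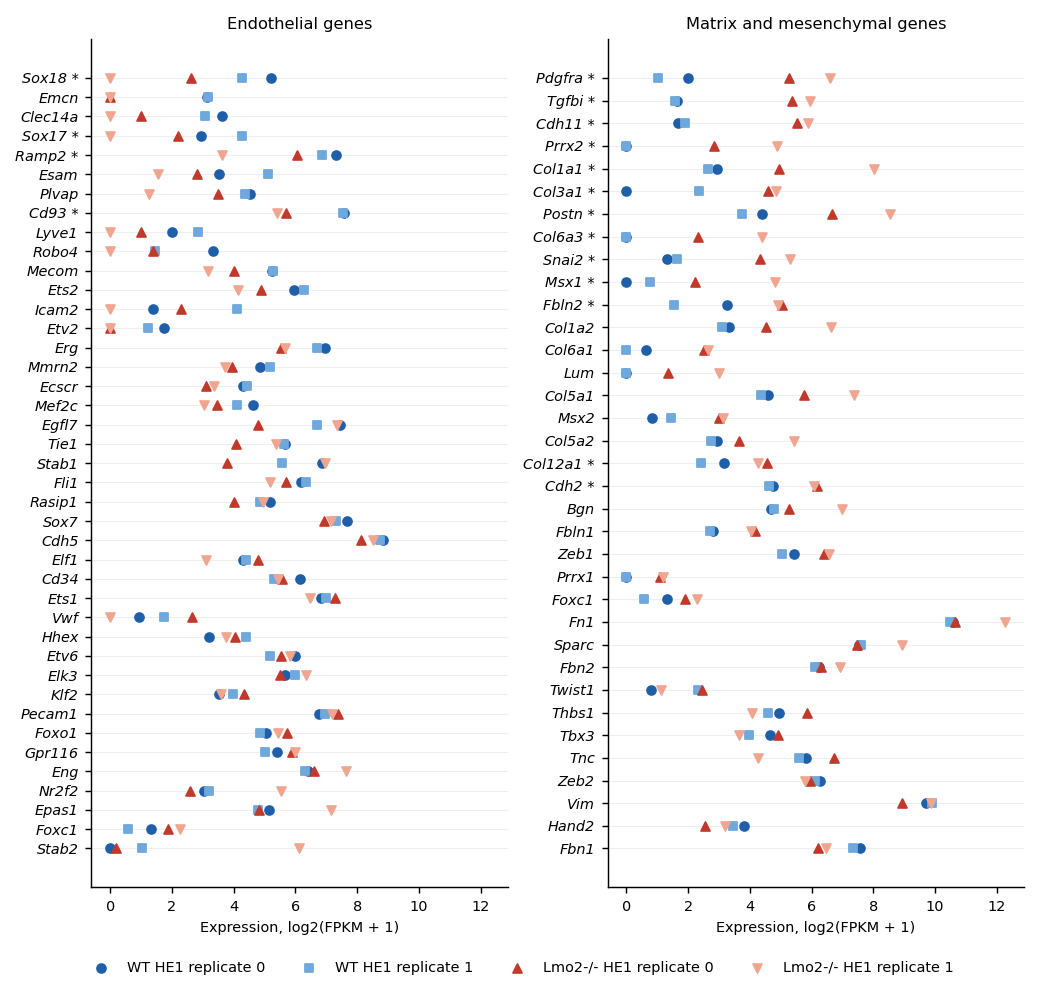
Expression in log2(FPKM + 1) on the x axis for the tested members of the endothelial lists (left, surface genes and transcription factors) and of the matrix and mesenchymal lists (right), ordered by log2 fold change. Each symbol is a library, named by its label, and an asterisk marks a called gene. At the top left the Lmo2-/- libraries lie below those of WT, as for Cd93, and at the top right they lie above, as for Pdgfra.

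Endothelial surface and junction genes had few called members. Of 22 tested members 2 were called lower and 0 higher, and neither was called without replicate 1. Over all tested genes 1.44 percent were called lower. The median log2 fold change of the 22 was -1.09, and -1.04 in replicate 0. In 12 of the 22 both Lmo2-/- libraries lay below both WT libraries, a pattern found in 15.5 percent of all tested genes. The summed FPKM of the 23 listed genes was 1590 and 1380 in WT and 887 and 1320 in Lmo2-/-. Cd93, an endothelial lectin-like receptor, had 192 and 186 FPKM in WT and 50.8 and 41 FPKM in Lmo2-/-, a log2 fold change of -2.02 (SE 0.43, limma adjusted p = 0.0149, and 0.0572 without replicate 1). The locus of Ramp2, which makes the calcitonin receptor-like receptor respond to adrenomedullin, also holds Vps25 and had 158 and 116 FPKM in WT and 65.1 and 11.3 FPKM in Lmo2-/-. Calcrl, the receptor that Ramp2 partners, had 134 and 193 FPKM in WT and 37.9 and 18.4 FPKM in Lmo2-/- (limma adjusted p = 0.0189, and 0.119 without replicate 1). Both belong to the 7 tested genes of apelin, sphingosine phosphate and adrenomedullin signalling, of which they were the 2 called, both lower. Emcn (endomucin) had 7.84 and 8.02 FPKM in WT and was listed at 0 in both Lmo2-/- libraries (limma adjusted p = 0.000337), which stayed below the FPKM needed for a call. The most abundant members, Cdh5 and Pecam1, were given above and did not pass (limma adjusted p = 0.593 and 0.745).

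Among 19 tested endothelial transcription factors the 2 called genes, both lower, were of the SOXF family, which acts in arterial and lymphatic endothelium. Sox18 had 35.9 and 18.3 FPKM in WT, and 5.16 FPKM and 0 in Lmo2-/-, a log2 fold change of -3.43 (SE 0.65, limma adjusted p = 0.00884, and 0.0256 without replicate 1). Sox17 had 6.70 and 18.5 FPKM in WT, and 3.56 FPKM and 0 in Lmo2-/- (limma adjusted p = 0.0377, and 0.257 without replicate 1). The third SOXF gene, Sox7, was the most abundant of the list, at 202 and 159 FPKM in WT and 120 and 142 FPKM in Lmo2-/- (limma adjusted p = 0.742). The ETS factor Erg had 123 and 104 FPKM in WT and 44.9 and 49.1 FPKM in Lmo2-/- (limma adjusted p = 0.394), and Fli1 had 72.0 and 79.7 FPKM in WT and 50.3 and 35.2 FPKM in Lmo2-/- (limma adjusted p = 0.251). For both the libraries did not overlap and the test was not passed. Ets2 and Mecom had the same order, with limma adjusted p of 0.0747 and 0.135.

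Partners of LMO2 and haematopoietic factors were mostly not called. Of 15 tested members of the LMO2 complex and its partners 1 was called lower and 1 higher. Ldb2, a relative of the LMO2 partner LDB1, had 76.5 and 40.9 FPKM in WT and 0.846 and 11.7 FPKM in Lmo2-/-, a log2 fold change of -3.56 (SE 0.86, limma adjusted p = 0.0262, and 0.00741 without replicate 1). Ldb1 itself had 18.6 and 16.0 FPKM in WT and 21.0 and 57.3 FPKM in Lmo2-/- (limma adjusted p = 0.322). Runx1t1 (ETO), a corepressor, had 4.32 and 6.93 FPKM in WT and 16.0 and 119 FPKM in Lmo2-/- (limma adjusted p = 0.0408, and 0.276 without replicate 1). The paper, by contrast, places Runx1t1 in a cluster of genes not upregulated in Lmo2-/- HE1, the opposite direction. Tal1 had 37.6 and 27.8 FPKM in WT and 56.2 and 52.2 FPKM in Lmo2-/- (limma adjusted p = 0.454).

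Of 18 haematopoietic transcription factors 7 were tested, of which 0 were called by limma and 1 had an unadjusted p below 0.05, with 7 below 1 FPKM in all 4 libraries. Runx1 had 5.91 and 5.42 FPKM in WT and 13.1 and 7.83 FPKM in Lmo2-/- (limma adjusted p = 0.365). Gata2 had 31.0 and 8.95 FPKM in WT and 12 and 30.8 FPKM in Lmo2-/-, which overlapped. Lyl1, the closest relative of Tal1, had 4.49 and 5.01 FPKM in WT, and 0.164 FPKM and 0 in Lmo2-/- (limma adjusted p = 0.00408), below the FPKM needed for a call. Of the 14 tested genes that the study names beside its LMO2 binding sites, a list chosen by the study, only Runx1t1 was called. In 7 of the 14 both Lmo2-/- libraries lay below both WT libraries, against 15.5 percent of all tested genes. With other settings up to 2 of this list were called lower. Being chosen on samples of this study, it is no independent evidence of a direction.

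Growth factor receptors and ligands of blood vessels gave 5 called higher and 0 lower of 18 tested, of which 4 held without replicate 1. Besides Pdgfra and Pdgfrb these were Nrp1 and both angiopoietin genes. Over all tested genes 3.35 percent were called higher. Both Lmo2-/- libraries lay above both WT libraries in 9 of the 18 and below in 4, against 31.4 and 15.5 percent of all tested genes. Nrp1 (neuropilin 1), a coreceptor of VEGF and semaphorins on a locus joined with Mir1903, had 64.0 and 61.4 FPKM in WT and 239 and 272 FPKM in Lmo2-/-, a log2 fold change of 2.01 (SE 0.37, limma adjusted p = 0.00792, and 0.0413 without replicate 1). Angpt1, the agonist of Tie2 that mural cells secrete, had 0.695 and 0.449 FPKM in WT and 12.8 and 11.1 FPKM in Lmo2-/-, a log2 fold change of 3.04 (SE 0.33, limma adjusted p = 0.000535, and 0.000323 without replicate 1). Angpt2 had 0 and 0.396 FPKM in WT and 7.79 and 19 FPKM in Lmo2-/-, and without replicate 1 it stayed below the FPKM needed for a call. Kdr, which encodes Flk-1, had 236 and 275 FPKM in WT and 175 and 143 FPKM in Lmo2-/- (limma adjusted p = 0.325). Flt1 and Nrp2 were likewise not called.

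Further signalling lists also had called members. Of 15 tested Wnt genes 3 were called higher and 0 lower, and in 10 both Lmo2-/- libraries lay above both WT libraries. Over all tested genes 3.35 percent were called higher and 31.4 percent had that order. Wnt5a, a ligand of the non-canonical pathway, had 4.59 and 3.68 FPKM in WT and 38.4 and 58.6 FPKM in Lmo2-/- (limma adjusted p = 0.00657, and 0.0457 without replicate 1). Fzd2, a receptor, and Axin2, a target of the canonical pathway, lost their calls without replicate 1. Of 20 tested TGF-beta and BMP genes Bmp4 and Bmp5 were called higher and 0 lower, and neither was called without replicate 1. Bmp5 then had 9.04 FPKM, below the level needed. Bmp4 had 9.43 and 11.8 FPKM in WT and 32.9 and 235 FPKM in Lmo2-/- (limma adjusted p = 0.0226, and 0.141 without replicate 1).

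Of 17 tested Notch and ephrin genes only the ephrin ligand Efnb1 was called, with 3.82 and 4.16 FPKM in WT and 32.6 and 97.9 FPKM in Lmo2-/- (limma adjusted p = 0.00330, and 0.0247 without replicate 1). Up to 3 of this list were called higher with other settings. The share called higher over all tested genes was 3.35 percent. Notch4, an endothelial receptor, had 44.0 and 28.4 FPKM in WT and 8.05 and 6.96 FPKM in Lmo2-/- (limma adjusted p = 0.0670). Of 15 tested YAP and TEAD genes Yap1 alone was called, with 56.5 and 50.1 FPKM in WT and 129 and 104 FPKM in Lmo2-/- (limma adjusted p = 0.0494, and 0.0844 without replicate 1), and with other settings up to 4 were called higher and up to 2 lower. Besides Itga8, the integrin Itgb5 was called higher among 14 tested, with 3.75 and 3.21 FPKM in WT and 10.6 and 40 FPKM in Lmo2-/-, and it lost the call without replicate 1 (limma adjusted p = 0.170). Among 12 tested matrix proteases and inhibitors Adamts9 and Timp2 were called higher and 1 member lower. Adamts9 had 15.6 and 12.2 FPKM in WT and 81.7 and 232.5 FPKM in Lmo2-/- and held without replicate 1 (limma adjusted p = 0.00946). Timp2 had 6.45 and 8.64 FPKM in WT and 31.1 and 83.8 FPKM in Lmo2-/- and did not hold (limma adjusted p = 0.0611).

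Among muscle genes the called members were cardiac. Of 17 tested smooth muscle contractile genes 0 were called by limma and 4 had an unadjusted p below 0.05. With a library left out up to 4 were called higher and up to 1 lower. Acta2, smooth muscle actin, had 165 and 114 FPKM in WT and 263 and 816 FPKM in Lmo2-/- (limma adjusted p = 0.0749, and 0.420 without replicate 1). Tagln had 50.5 and 53.7 FPKM in WT and 59.0 and 24.1 FPKM in Lmo2-/-, which overlapped. Flna had 564 and 603 FPKM in WT and 1433 and 1312 FPKM in Lmo2-/- (limma adjusted p = 0.161). Of 12 tested cardiac genes 2 were called higher, both of them transcription factors of heart mesoderm and both also without replicate 1. Hand1 had 17.7 and 2.96 FPKM in WT and 117 and 210 FPKM in Lmo2-/-, a log2 fold change of 4.20 (SE 0.69, limma adjusted p = 0.00385, and 0.0320 without replicate 1). Tbx20 had 32.5 and 23.5 FPKM in WT and 190 and 116 FPKM in Lmo2-/-, a log2 fold change of 2.39 (SE 0.40, limma adjusted p = 0.00449). The sarcomere gene Tnnt2 had 7.80 and 6.57 FPKM in WT, and 4.37 FPKM and 0 in Lmo2-/- (limma adjusted p = 0.228). The transcription factor genes Hand2 and Mef2c were also lower in both Lmo2-/- libraries without passing (limma adjusted p = 0.346 and 0.368). Of the 12 cardiac genes 5 had both Lmo2-/- libraries above WT and 3 below, against 31.4 and 15.5 percent of all tested genes. Called higher were 3.35 percent of all tested genes.

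Some genes of the ribosome and of respiration were called lower. Over all tested genes 1.44 percent were called lower, and of those with transcripts below 1000 nt 3.21 percent. Of 60 tested cytosolic ribosomal protein genes 9 were called lower and 0 higher, and 2 of the 9 also without replicate 1. Their median log2 fold change was -0.97, with -1.52 in replicate 0 and -0.435 in replicate 1. The summed FPKM of all 86 genes was 2580 and 2940 in WT HE1, 696 in replicate 0 and 3740 in replicate 1 of Lmo2-/- HE1, so the Lmo2-/- libraries lay on opposite sides of WT. Of 66 tested subunits of oxidative phosphorylation 6 were called lower and 0 higher, with a median of -0.99 in replicate 0 and -0.06 in replicate 1, and 2 of the 6 held without replicate 1. The summed FPKM of all 79 genes was 1570 and 1590 in WT, 957 in replicate 0 and 2610 in replicate 1, again on opposite sides of WT. With a library left out 3 to 12 ribosomal genes were called lower and up to 3 higher, and 1 to 12 respiratory genes lower and up to 11 higher. Ndufb11, a subunit of complex I, had 17.3 and 11.3 FPKM in WT, and 1.08 FPKM and 0 in Lmo2-/- (limma adjusted p = 0.00485, and 0.0310 without replicate 1).

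Transcript length moved with these differences. The median transcript length was 2356 nt for all tested genes, 3165 nt for genes called higher and 1333 nt for genes called lower, with a length found for 90.2, 98.1 and 82.4 percent of them. In replicate 0 the median difference from WT was -0.17 for transcripts below 1000 nt, -0.04 from 1000 to 2000 nt, 0.32 from 2000 to 4000 nt and 0.52 from 4000 nt. In replicate 1 it was 0.20, 0.28, 0.60 and 0.73 in the same order. Between the WT HE1 libraries the medians of the same classes lay between 0 and 0.0984, and between Lmo2-/- and WT Flk-1+ cells between -0.0245 and -0.00568. Of the genes with transcripts below 1000 nt 1.85 percent were called higher and 3.21 percent lower, and of those from 4000 nt 6.09 percent higher and 0.442 percent lower.

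The ribosomal and respiratory genes had median transcript lengths of 723.5 and 693.5 nt, and the matrix genes of 4414 nt. With transcripts of at least 2000 nt alone, 5 of 16 matrix genes and 4 of 9 mesenchymal factors were called higher, with medians of 1.91 and 1.46. In the same range 1 of 14 endothelial surface genes was called lower, with a median of -0.50, and 0 of 11 endothelial transcription factors were called, with a median of -0.42. Of all tested genes from 2000 to 4000 nt 4.04 percent were called higher and 0.814 percent lower, with a median of 0.415. From 4000 nt the shares were 6.09 and 0.442 percent, with a median of 0.628. The part of transcript length in the calls was not tested.

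**Figure D4:**
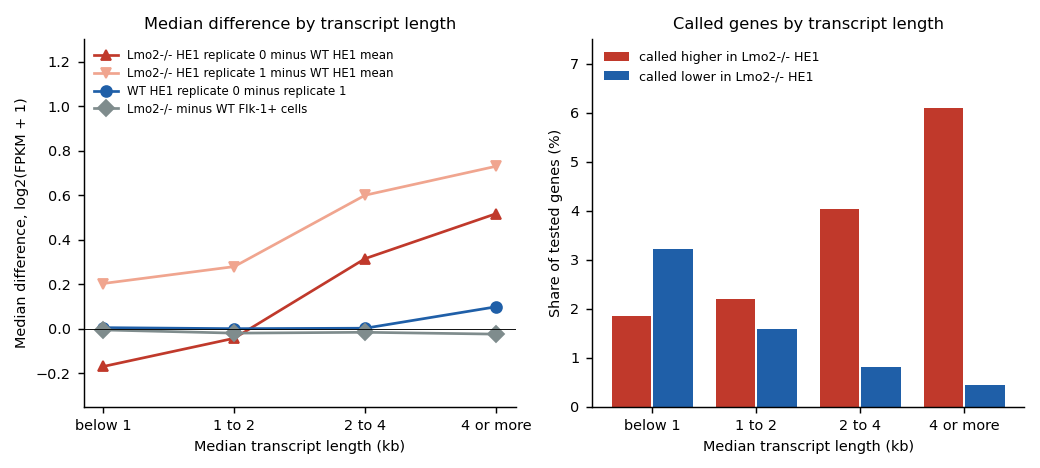
On the left the y axis gives the median difference in log2(FPKM + 1) over the genes of each length class on the x axis, for each library labelled Lmo2-/- HE1 against the WT mean, for the WT libraries against each other and for Flk-1+ cells. On the right, bars give the share of tested genes called higher or lower. In both Lmo2-/- HE1 libraries the median is higher in each longer class, from -0.17 to 0.52 in replicate 0, and the share called higher goes from 1.85 to 6.09 percent.

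Flk-1+ cells served to ask whether the difference between the genotypes was there before HE1. The interaction of genotype and stage, the HE1 difference minus the Flk-1+ difference on the log2 scale, was called in 88 of the tested genes (0.799 percent) by the same limma threshold of 0.05, with an average over 10 FPKM in any of the 4 groups. In 66 genes the HE1 difference was the more positive, and 64 of them were also called higher in HE1. In 22 genes it was the more negative, all of them called lower in HE1. Without Lmo2-/- HE1 replicate 1 the count was 55, and without replicate 0 it was 1341. Itga8 had 3.25 to 7.04 FPKM in WT and 3.73 to 5.11 FPKM in Lmo2-/- Flk-1+ cells, so its level was lower in WT HE1 and higher in Lmo2-/- HE1 than in the Flk-1+ cells. Kif5c showed the same order, with 2.57 to 16.7 FPKM in WT and 5.57 to 6.80 FPKM in Lmo2-/- Flk-1+ cells. Pdgfra had 22.5 to 42.9 FPKM in WT and 25.3 to 28.3 FPKM in Lmo2-/- Flk-1+ cells, above WT HE1 and within reach of the 37.3 FPKM of Lmo2-/- HE1 replicate 0 (interaction 4.49, SE 0.62, limma adjusted p = 0.00699). Smoc2 and Tdo2 were at or near 0 in all Flk-1+ libraries. Igf1 had at most 1.47 FPKM in Flk-1+ cells, and its high level was seen in WT HE1.

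Over all 369 genes called higher in HE1 the median difference of Lmo2-/- from WT in Flk-1+ cells was 0.16, and over the 159 called lower it was -0.13, against -0.02 for all tested genes. The sign in Flk-1+ cells was that of HE1 in 241 of the 369 and in 100 of the 159. Among all 11014 tested genes 5185 were higher in Lmo2-/- Flk-1+ cells.

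**Figure D5:**
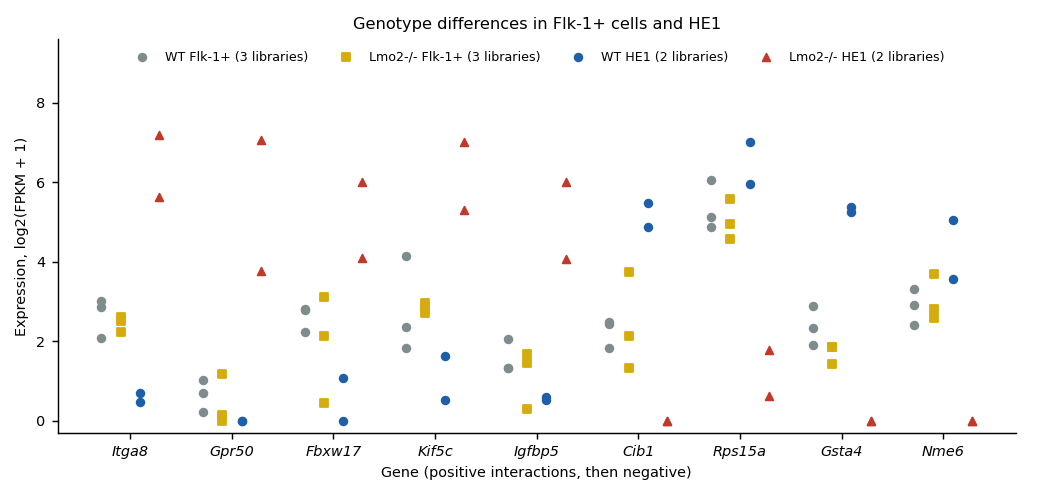
Expression in log2(FPKM + 1) on the y axis of the 5 genes with the most positive and of 4 of the 5 with the most negative interaction of genotype and stage (x axis). Each symbol is a library of WT or Lmo2-/- Flk-1+ cells or HE1, named by its label, and symbols at 0 can overlap. The Lmo2-/- HE1 libraries stand above those of WT HE1 in the first 5 genes and below them in the last 4.

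Other lists had few calls or none. Of 27 tested cell cycle genes the inhibitor Cdkn1c was called higher and Birc5 and Tyms lower. Birc5, with 36.4 and 32.2 FPKM in WT and 15.7 and 4.17 FPKM in Lmo2-/-, and Tyms, with 22.1 and 30.6 FPKM in WT and 6.60 and 7.65 FPKM in Lmo2-/-, lost their calls without replicate 1 (limma adjusted p = 0.264 and 0.0928). The proliferation marker Mki67 had 370 and 308 FPKM in WT and 575 and 585 FPKM in Lmo2-/- (limma adjusted p = 0.205). Cdkn1c, which is imprinted, had 1.22 and 3.17 FPKM in WT and 44.7 and 47.2 FPKM in Lmo2-/-, a log2 fold change of 3.95 (SE 0.55, limma adjusted p = 0.00157, and 0.00920 without replicate 1). Of 17 tested imprinted genes Cdkn1c, Dlk1 and Zim1 were called higher and 0 lower, and in 12 both Lmo2-/- libraries lay above both WT libraries, against 3.35 and 31.4 percent of all tested genes. Dlk1, with 29.3 and 91.3 FPKM in Lmo2-/-, and Zim1, with 58.5 and 60.3 FPKM, lost their calls without replicate 1 (limma adjusted p = 0.220 and 0.0784). The glucose transporter Slc2a1 was the only called gene of 24 for glycolysis and hypoxia, with 71.3 and 70.4 FPKM in WT and 216 and 564 FPKM in Lmo2-/- (limma adjusted p = 0.00797, and 0.0507 without replicate 1). The keratins Krt8 and Krt18 were called higher and Sox17 lower among 6 tested epithelial and endoderm genes, and none of these calls held without replicate 1 (limma adjusted p = 0.185, 0.109 and 0.257). Krt8 had 9.81 and 5.37 FPKM in WT and 20.9 and 79.3 FPKM in Lmo2-/-, and Krt18 had 8.70 and 5.14 FPKM in WT and 27.7 and 85.5 FPKM in Lmo2-/-. Hoxb8 was called higher among 12 tested Hox genes, with 1.79 FPKM in replicate 0 and 19 FPKM in replicate 1, and Snrpd3 lower among 23 RNA processing genes, with 31.8 and 24.6 FPKM in WT and 5.83 and 11.6 FPKM in Lmo2-/-. Neither held without replicate 1 (limma adjusted p = 0.218 and 0.0556).

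Over all 11014 tested genes 2798 had an unadjusted p below 0.05 by limma. In 17 of the 41 lists no member was called by limma, and 32 of their 137 tested members had an unadjusted p below 0.05. Besides those described above these were the SRF and myocardin factors, immediate early genes, actin and S100 genes, ribosome biogenesis factors, interferon response genes, DNA methylation enzymes, sex chromosome genes and the markers of mesothelium, neural cells, pluripotency and primitive streak. Of these markers 2 mesothelial, 2 neural, 2 pluripotency and 1 primitive streak gene reached the FPKM needed for a test.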

How the data were processed

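RNA of sorted HE1 and of Flk-1+ cells was sequenced by the authors from stranded poly(A) libraries, and the submitters' processing notes name TopHat2 2.0.9 and Cufflinks 2.0.0 with mm10. Cuffnorm gave the FPKM that the authors deposited for each library, without library totals. The paper states a minimum of reads acquired for every library. How many fragments lay behind the FPKM of each is known only from the lowest values. The tables hold 0 further per-sample columns. The authors' table of Cuffdiff comparisons (fold changes and p-values) and the ChIP and DNase files were not used here. Symbols came from the deposited condition table. Replicates are independent libraries, described in the study as biological triplicates of Flk-1+ cells and duplicates of HE1. In GEO they share a sample and are told apart by column name.

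Loci longer than 200 bp with at least 1 FPKM in 2 of the 4 HE1 libraries were tested. limma 3.58.1 (R 4.3.3) was fitted with a trend to log2(FPKM + 1) of 13 libraries in 5 groups, two-sided, with Benjamini-Hochberg adjustment over 11014 genes. On this scale changes of low genes are understated. Calls needed an adjusted p under 0.05 and an average over 10 FPKM in a group compared. Python 3.11.15 (pandas 2.3.3) did the rest. The fit was tested on simulated data with known changes.

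The genes, lists and tests were chosen with earlier results of these data known. Named were called members or the most abundant members of 41 lists, Lmo2, Tal1, Runx1, Gata2, Tek, Kit and Itga2b, the 15 largest rises and falls called with and without Lmo2-/- HE1 replicate 1 whose libraries did not overlap and that carry an ordinary symbol, and the 5 largest interactions each way, apart from items that are not reported here. Further uncalled list members given with values (Emcn, Lyl1, Notch4, Erg, Fli1, Ets2, Mecom, Fbn1, Tnnt2 and the like) were chosen after their values were seen. Alternatives were other filters, pseudocounts, scalings, array weights, a fit without the trend, a replicate block and each library left out. Transcript length is the median over protein-coding GENCODE M21 transcripts. Promoter motifs were planned, but the RefSeq table (GRCm38.p6) held 74.6 percent of tested genes and 64.2 percent of those called lower, so that this check is void.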

Additional observations from a re-analysis of the deposited data

Results flagged for a closer look

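Of the 88 genes called in the limma interaction of genotype and stage, 9 of the largest on the log2 scale are given. The positive interactions were 6.03 for Itga8 (adjusted p = 0.00441), 5.63 for Gpr50 (adjusted p = 0.0249), 5.23 for Fbxw17 (adjusted p = 0.0405), 5.02 for Kif5c (adjusted p = 0.0348) and 4.89 for Igfbp5 (adjusted p = 0.0213), all by limma. Fbxw17, an F-box gene, had 0 and 1.09 FPKM in WT HE1 and 16.0 and 63.7 FPKM in Lmo2-/- HE1, and its HE1 difference was not called without Lmo2-/- replicate 1 (limma adjusted p = 0.0630). The negative interactions by limma were -5.33 for Cib1 (adjusted p = 0.0355), -4.98 for Rps15a (adjusted p = 0.00701), -4.65 for Gsta4 (adjusted p = 0.00627) and -4.46 for Nme6 (adjusted p = 0.0171). Of these 4, all but Rps15a were listed at 0 in both Lmo2-/- HE1 libraries. Where a group is listed at 0, as for these and for Gpr50 in WT HE1, the value depends on the pseudocount and is no bound on a fold.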

How the results depend on the processing

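The count of 528 genes called in HE1 became 823 without the FPKM criterion, 56 with array weights and 0 with the HE1 libraries alone (limma, 1276 at an unadjusted p below 0.05). It ran from 133 to 2298 with a library left out, the lowest without WT HE1 replicate 0 and the highest without Lmo2-/- HE1 replicate 0. Without Lmo2-/- HE1 replicate 1 it was 193 and without WT HE1 replicate 1 it was 200. The 88 interaction calls became 48 with the filter over all libraries, 58 without a filter, 41 with quantile normalization, 44 with a common median, 15 with array weights and 26 when only the 4 groups of that test were fitted. With a library left out they ran from 21 to 1341, and only leaving out Tal1-/- Flk-1+ replicate 0 (60) kept them within 1.5 times. The cause was not tested. Deviations of HE1 libraries with equal replicate numbers correlated at -0.0572, and with unequal numbers at 0.0572. With 2 libraries a group these are the same value with its sign changed. Whether the numbers paired the HE1 samples cannot be read from it. With the replicate block 426 genes were called in HE1 and 35 in the interaction. Of 99 named genes called in HE1 0 changed direction under any setting, 58 were also called without Lmo2-/- HE1 replicate 1, 44 without WT HE1 replicate 0 and 60 without WT HE1 replicate 1. In all called genes the HE1 libraries of the genotypes did not overlap. Leaving out a library or changing the filter could therefore not change their direction. Among genes not called, 4 changed sign with quantile normalization and with a common median, Gata2 to -0.24 and -0.29, Tek to -0.13 and -0.0801, Kit to -0.33 and -0.28 and Pecam1 to -0.15 and -0.0866. With a library left out the log2 fold change ran from -0.65 to 1.03 for Gata2, -0.0208 to 0.47 for Kit, -3.77 to 0.61 for Itga2b, -0.64 to 0.19 for Cd34, -1.08 to 0.18 for Tagln and -0.89 to 0.0781 for Vim. FPKM without library totals give no floor for a value of 0.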

Other observations

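Other genes called both with and without Lmo2-/- HE1 replicate 1, chosen after their values were seen, belong to hedgehog signalling and to endothelium. Ptch1, the hedgehog receptor and a target of the pathway, had 16.5 and 13.3 FPKM in WT HE1 and 100.2 and 150 FPKM in the libraries labelled Lmo2-/- (limma adjusted p = 0.00123). Gas1, a hedgehog coreceptor, had 0.506 and 0.765 FPKM in WT and 11.5 and 15.2 FPKM in Lmo2-/- (limma adjusted p = 0.00210). With Gli2, described above, these make 3 hedgehog genes that were higher in both Lmo2-/- libraries. No list of the pathway was drawn up, so the share of its genes that moved is not known.

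Of further genes known from endothelium, 4 called lower and 1 called higher are given, also chosen after their values were seen. Nos3, endothelial nitric oxide synthase, had 40.2 and 30.8 FPKM in WT and 8.23 and 6.51 FPKM in Lmo2-/- (limma adjusted p = 0.0119, and 0.0412 without replicate 1). Thbd (thrombomodulin) had 19.2 and 20.7 FPKM in WT, and 4.53 FPKM and 0 in Lmo2-/-. Adgrl4, an endothelial adhesion receptor, had 63.4 and 73.2 FPKM in WT and 14.3 and 19.8 FPKM in Lmo2-/-. Ccm2l had 14.5 and 5.58 FPKM in WT, and 0.269 FPKM and 0 in Lmo2-/-. Prox1, the lymphatic endothelial regulator, went the other way, with 2.84 and 1.67 FPKM in WT and 19.8 and 15 FPKM in Lmo2-/- (limma adjusted p = 0.0119, and 0.0315 without replicate 1).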
